A study of Mus musculus with 8 samples.

Results

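The genes described here copy the chromosomes once a cell has entered S phase. They comprise the sliding clamp and its loader, the single-strand binding complex, the replicative polymerases, the factors that mark, license and fire replication origins, the enzymes that finish the lagging strand, and the factors that restore chromatin and DNA methylation behind the fork. The list was a fixed set of 39 gene names. A gene was measured through the probe sets that the array's annotation assigns to it and to no other symbol, and the brightest of these over all arrays stood for it. Of the 39 genes, 38 had such a probe set and were among the 14450 genes tested, out of 18193 genes named on the array. Chaf1a was not analysed here.

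The RNA came from livers of male C57BL/6 mice aged 7 to 10 weeks, in 4 groups. They were Tob1 null mice 24 h after partial hepatectomy, unoperated Tob1 null mice (0 h), wild type mice 24 h after partial hepatectomy, and unoperated wild type mice (0 h). Each group had 2 Affymetrix arrays, and each array carried RNA pooled from 3 different animals, so every error below comes from the spread between pools. The null mice carry their deletion on the C57BL/6 background and derive from a line made elsewhere. In the operation the median and left lateral lobes were tied off. No group was sham operated, so effects of surgery and of the loss of liver cannot be told apart. Tob1 belongs to a family of antiproliferative proteins, and the series title calls it a repressor of liver regeneration. The comparisons ask how hepatectomy moves these genes with and without it.

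Hepatocytes of the adult liver rarely divide, and after partial hepatectomy most of them re-enter the cell cycle and pass through S phase. Origins are prepared before S phase, when the origin recognition complex, Cdc6 and Cdt1 load the Mcm helicase onto DNA. They fire when kinases and further factors, among them Cdc45 and the GINS complex, turn the helicase on. Polymerase alpha with primase then lays primers, the loader places the clamp Pcna on them, and polymerases delta and epsilon extend them. Many of these genes are transcribed under E2F factors as cells approach S phase.

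At 24 h more of these genes were higher than at 0 h, and the rises that passed the test were mostly in the null-labelled livers. In what follows a response is the 24 h level minus the 0 h level within a genotype, on the log2 scale. A gene rose or fell where limma's adjusted p was under 0.05 over all 14450 genes. In the null-labelled livers 15 of the 38 genes rose and none fell, where 7.45% of all genes tested rose and 7.23% fell. In wild type livers 1 of the 38 rose (Orc2) and none fell, where 4.13% of all genes rose and 5.08% fell. Averaged over both genotypes, the mean response rose for 19 and fell for 1 (Mcm10, through its brightest probe set), where 13.8% of all genes rose and 15% fell. The median response of the 38 genes was 0.91 in null-labelled and 0.47 in wild type livers, against -0.04 and -0.03 over all genes tested. For the mean response it was 0.77, against -0.04 over all genes.

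Whether the responses differ between the genotypes is a separate test, and no gene passed it. The difference, null-labelled response minus wild type response, was positive for 33 of the 38 genes, with a median of 0.58 on the log2 scale against 0.00 over all genes. None passed in limma, where 0% of all genes passed. At an unadjusted p under 0.05 there were 6, all positive (Pcna, Rfc4, Orc5, Orc6, Gins1 and Chaf1b). That is 15.8% of the 38, where 4.57% of all genes were positive at that threshold. The larger number of rises in null-labelled livers is therefore not shown to be a difference between genotypes.

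A single array could change these counts. All 15 rises in the null-labelled response were lost without either null-labelled 0 h array, when 33 and 23 of the 14450 genes passed in all. Without either null-labelled 24 h array, or without either wild type 0 h array, fewer of the 38 genes rose. Without the second null-labelled 24 h array a gene also fell. Fewer of all genes tested passed in each of these fits too, so the smaller counts are not a result about these genes alone. Over the fits that each left out 1 of the 8 arrays, 10 to 17 of the 38 genes rose in the mean response, and Cdt1, Orc2, Orc6, Pcna, Rfc3 and Rfc4 passed in all 8 of them. Uhrf1 did so too, but it passed the filter on low signals only through its 24 h arrays and so had to differ between times. Orc3 and Pola1 passed in 1 of the 8 fits and Rfc2 and Pole in 2. In the null-labelled response Orc6 and Pcna passed most often, in 6 of the 8, while Pold3, Chaf1b and Rpa2 passed in 0 of the 8, so that leaving out any single array ended their calls. The rise of Orc2 in wild type passed in 2 of the 8.

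**Figure D1:**
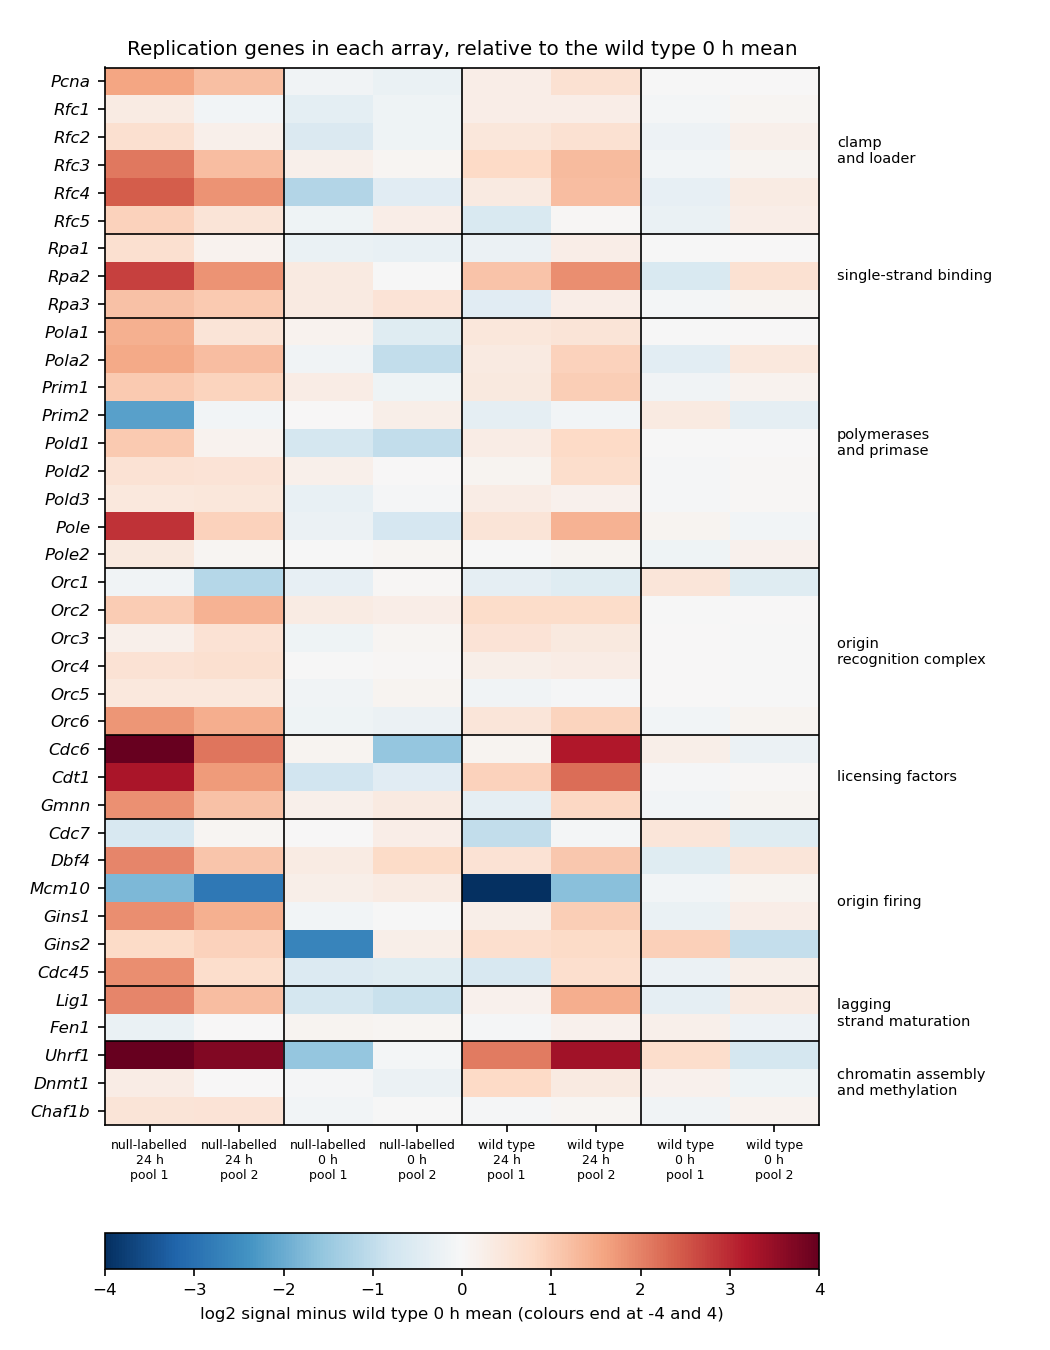
Log2 signal of each of the 38 genes (rows, grouped by role) in each of the 8 arrays (columns, 2 pools per group), after subtracting the gene's wild type 0 h mean; red is higher and blue lower, and colours end at -4 and 4. Most rows are red in the null-labelled 24 h arrays, Mcm10 is blue at 24 h in both genotypes, and pool 2 of wild type 24 h is redder than pool 1.

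The 2 pools of a group did not move alike at 24 h. In null-labelled livers at 24 h the first pool was higher than the second for 29 of the 38 genes, with a median difference of 0.42 on the log2 scale. In wild type livers at 24 h the second pool was higher for 32, and the first minus the second had a median of -0.49. The median absolute difference between pools was 0.45 for the 38 genes and 0.26 for all genes in null-labelled livers at 24 h, and 0.49 and 0.22 in wild type livers at 24 h. Relative to the wild type 0 h mean, the median of the 38 genes was 1.03 and 0.67 in the null-labelled 24 h arrays, -0.13 and -0.02 in the null-labelled 0 h arrays, 0.26 and 0.64 in the wild type 24 h arrays, and -0.05 and 0.05 in the wild type 0 h arrays. The second pools of the 24 h groups thus had nearly equal medians.

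Replicate arrays correlated at 0.968 to 0.977 over the genes tested. Hepatocyte markers, of which 7 of 8 were measured, summed to log2 signals between 15.65 and 15.79 in every array. Lymphocyte and neutrophil markers (7 of 8 measured, with Cd3e, Cd3g and Ms4a1 under the limit of the filter) summed to 7.81 and 8.32 in null-labelled livers at 24 h and 6.99 and 7.24 at 0 h. In wild type livers they summed to 9.41 and 7.43 at 24 h and 7.00 and 7.27 at 0 h. Within this list S100a8 and S100a9 rose in the mean response while Nkg7 and Cd79a fell, so the sum does not stand for every marker in it. Bile duct markers (5 of 6 measured, with Epcam and Cldn7 under the limit) summed to 7.02 and 7.36 in null-labelled livers at 24 h and 6.03 and 6.84 at 0 h, and to 8.06 and 7.37 in wild type livers at 24 h and 7.02 and 7.01 at 0 h. Both sums were highest in the first wild type pool at 24 h. Over all arrays, Kupffer cell markers summed to between 10.81 and 11.30, while 2 of them rose and 3 fell in the mean response. Stellate cell markers summed to 10.94 and 10.87 in null-labelled livers at 24 h and 11.30 and 10.97 at 0 h. In wild type they summed to 10.80 and 11.04 at 24 h and 11.29 and 11.21 at 0 h, so they were lower at 24 h in both genotypes. Endothelial markers summed to 10.24 and 10.42 in null-labelled livers at 24 h and 9.97 and 10.27 at 0 h. In wild type they were lower at 24 h (10.11 and 10.33) than at 0 h (10.57 and 10.53). The log2 ratio of 3' to 5' actin signal, a sign of RNA quality, was 1.22 and 1.32 in null-labelled livers at 24 h and 1.59 and 1.54 at 0 h, and 1.03 and 0.91 in wild type livers at 24 h and 1.04 and 1.40 at 0 h. It was highest in the null-labelled 0 h pools. The part of these markers and ratios in the responses was not tested. In such bulk samples more cells of a type and more RNA per cell cannot be told apart. The brightest Tob1 probe set read 10.66 and 10.58 in null-labelled livers at 24 h and 11.10 and 11.03 at 0 h, against 9.87 and 10.20 in wild type at 24 h and 10.46 and 10.53 at 0 h. It was higher in the null-labelled arrays at each time. A second, much dimmer Tob1 probe set read 2.78 and 3.83 in null-labelled livers at 24 h and 2.65 and 4.06 at 0 h, against 4.27 and 4.96 in wild type at 24 h and 5.19 and 4.02 at 0 h. It was lower in both null-labelled arrays at 24 h, and the genotypes overlapped at 0 h. Since the place of these probe sets relative to the deletion is unknown here, neither checks a label. Directions between genotypes rest on the labels alone.

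Promoter sequence played no part in the choice of genes. RefSeq promoter windows (GRCm38.p6, 250 bases before to 50 after a gene's start) were at hand for 32 of the 38 genes. They were searched on both strands for TTTGGCGC, TTTCGCGC, TTTCCCGC and TTTGCCGC, the forms of the E2F recognition word. At least 1 of these lay in a window of 12 of the 32 genes (37.5%), against 489 of the 11555 genes tested that have a window (4.23%) and 704 of 27025 genes in the table (2.6%). CCAAT, also on both strands, lay in 17 of the 32 (53.1%), against 42.2% of the genes tested, so that most windows held no E2F word and the share with CCAAT was near that of all genes. The E2F word was in 6 of the 14 genes with a window that rose in the null-labelled response (42.9%) and in 6 of the 18 others (33.3%). For the mean response it was in 8 of 16 that rose (50%) and in 4 of 16 others (25%). A word in a window is a description and not a binding site, and these counts carry no test. The windows below are of genes that rose in the mean response, shown to set the word beside the responses given later: it lies 32 bases after the start in Cdt1, 185 bases before 1 of the annotated starts of Uhrf1, 39 bases after the start in Pold1, and at 2 places within 10 bases of the start in Rfc3, while Pcna holds none of the forms. Capitals mark the word on either strand, and each sequence runs 5′ to 3′ along its gene.
Cdt1, chr8:122567765-122568064, plus strand: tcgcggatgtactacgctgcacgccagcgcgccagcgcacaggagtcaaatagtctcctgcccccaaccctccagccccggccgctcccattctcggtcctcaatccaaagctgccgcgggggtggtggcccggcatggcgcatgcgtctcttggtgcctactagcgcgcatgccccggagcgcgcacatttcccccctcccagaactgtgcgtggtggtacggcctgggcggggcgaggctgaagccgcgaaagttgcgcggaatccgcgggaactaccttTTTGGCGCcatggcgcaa
Uhrf1, chr17:56304063-56304362, plus strand: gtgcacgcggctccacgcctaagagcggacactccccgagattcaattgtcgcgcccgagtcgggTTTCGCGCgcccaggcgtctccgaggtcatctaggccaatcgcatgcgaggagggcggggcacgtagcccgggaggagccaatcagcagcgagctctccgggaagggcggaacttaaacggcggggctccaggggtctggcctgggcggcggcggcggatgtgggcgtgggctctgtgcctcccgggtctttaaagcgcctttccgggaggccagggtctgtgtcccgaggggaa
Pold1, chr7:44548766-44549065, minus strand: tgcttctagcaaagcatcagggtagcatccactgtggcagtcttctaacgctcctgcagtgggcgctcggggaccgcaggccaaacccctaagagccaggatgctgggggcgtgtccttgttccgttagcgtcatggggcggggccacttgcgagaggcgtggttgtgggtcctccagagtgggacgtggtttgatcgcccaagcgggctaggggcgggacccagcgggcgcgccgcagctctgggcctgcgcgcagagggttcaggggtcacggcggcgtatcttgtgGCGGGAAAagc
Rfc3, chr5:151651159-151651458, minus strand: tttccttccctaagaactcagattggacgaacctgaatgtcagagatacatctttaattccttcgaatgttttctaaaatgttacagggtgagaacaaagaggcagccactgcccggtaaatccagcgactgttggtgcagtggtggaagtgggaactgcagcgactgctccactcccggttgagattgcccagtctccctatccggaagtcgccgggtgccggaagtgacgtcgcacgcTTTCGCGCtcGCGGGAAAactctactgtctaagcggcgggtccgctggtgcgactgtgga
Pcna, chr2:132253131-132253430, minus strand: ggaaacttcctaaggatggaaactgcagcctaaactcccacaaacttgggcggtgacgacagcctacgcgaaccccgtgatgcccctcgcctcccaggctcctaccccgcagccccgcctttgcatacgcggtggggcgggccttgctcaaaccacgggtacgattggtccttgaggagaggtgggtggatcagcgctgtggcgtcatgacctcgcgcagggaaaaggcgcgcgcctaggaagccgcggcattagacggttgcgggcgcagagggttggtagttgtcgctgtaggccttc

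The clamp and its loader gave 3 rises among 6 genes in the null-labelled response (Pcna, Rfc3 and Rfc4), none in wild type, and 4 in the mean response. Pcna, the ring that tethers polymerases to DNA, had log2 signals of 10.32 and 9.95 in null-labelled livers at 24 h and 8.60 and 8.48 at 0 h, against 8.99 and 9.35 in wild type at 24 h and 8.71 and 8.76 at 0 h. All 24 h arrays lay above all 0 h arrays, and both null-labelled 24 h arrays above both wild type 24 h arrays. The log2 response was 1.60 ± 0.19 (SE, 2 arrays per group; adjusted p = 0.0114) in null-labelled and 0.43 ± 0.19 (adjusted p = 0.187) in wild type livers. Its difference of responses was 1.16 ± 0.27 (adjusted p = 0.531).

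Rfc4, a loader subunit, had log2 signals of 7.72 and 7.08 in null-labelled livers at 24 h and 4.13 and 4.85 at 0 h, against 5.66 and 6.55 in wild type at 24 h and 4.98 and 5.62 at 0 h. Null-labelled livers were highest at 24 h and lowest at 0 h, and the wild type 24 h arrays lay just above the wild type 0 h arrays. The log2 response of Rfc4 was 2.91 ± 0.43 (adjusted p = 0.0167) in null-labelled and 0.80 ± 0.43 (adjusted p = 0.268) in wild type livers. A second Rfc4 probe set gave 2.44 and 0.59. Rfc3 had log2 signals of 7.45 and 6.56 in null-labelled livers at 24 h and 5.56 and 5.41 at 0 h, against 6.13 and 6.62 in wild type at 24 h and 5.24 and 5.45 at 0 h. Its 24 h groups overlapped each other and both lay above the 0 h groups. The log2 response was 1.52 ± 0.32 (adjusted p = 0.0332) in null-labelled and 1.03 ± 0.32 (adjusted p = 0.0963) in wild type livers. A second Rfc3 probe set gave 1.91 and 1.59, which both passed in a fit of all passing probe sets.

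Rfc2 had log2 signals of 7.95 and 7.50 in null-labelled livers at 24 h and 6.72 and 7.11 at 0 h, against 7.74 and 7.90 in wild type at 24 h and 7.09 and 7.50 at 0 h. It rose only in the mean response, by 0.67 ± 0.17 (adjusted p = 0.0327), with nearly equal levels in the 24 h groups. Rfc5 had log2 signals of 6.94 and 6.55 in null-labelled livers at 24 h and 5.86 and 6.27 at 0 h, against 5.42 and 6.08 in wild type at 24 h and 5.76 and 6.27 at 0 h. In wild type its 24 h arrays did not lie above the 0 h arrays, and its log2 responses were 0.68 ± 0.31 in null-labelled and -0.27 ± 0.31 in wild type livers, neither past the test. Rfc1, the large subunit, had log2 signals between 6.05 and 6.78 in the 8 arrays, with responses of 0.41 in null-labelled and 0.28 in wild type livers.

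**Figure D2:**
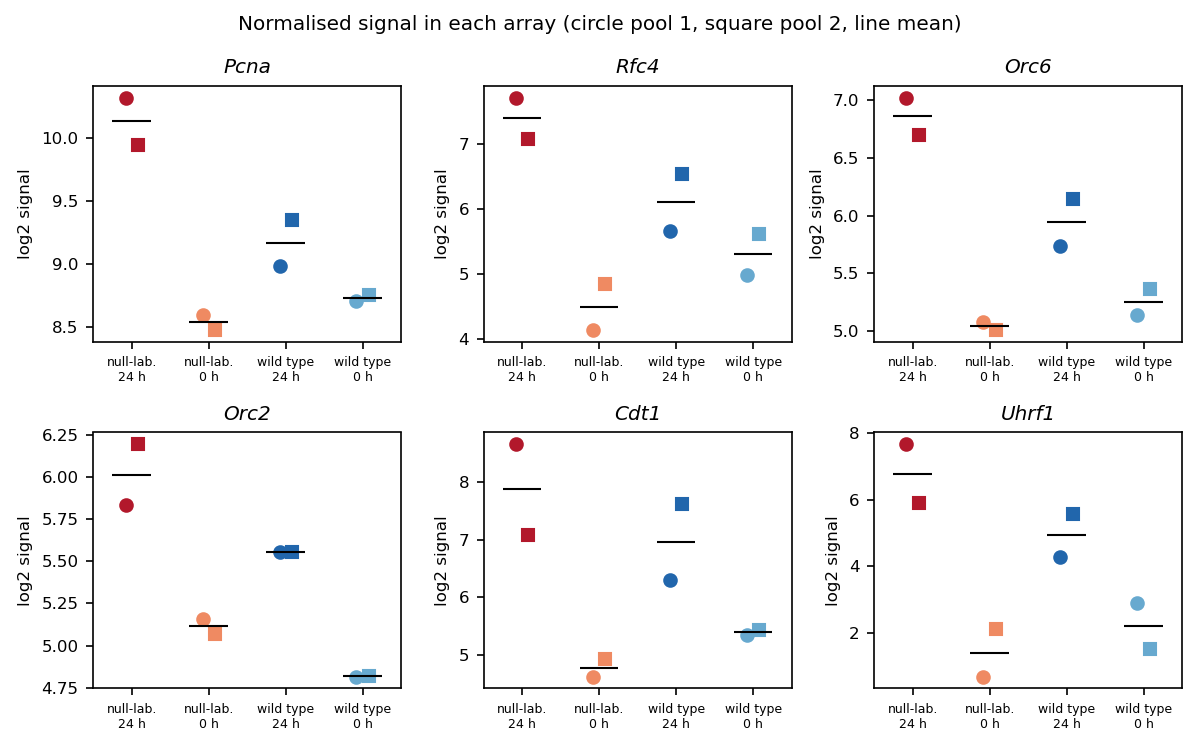
Log2 signal (vertical axes, not from 0) of 6 genes in each array, by group; circles are pool 1, squares pool 2 and lines the mean of the 2 pools. In all 6 panels both null-labelled 24 h arrays lie above both null-labelled 0 h arrays; for Cdt1 the second wild type 24 h pool (7.62) lies above the second null-labelled 24 h pool (7.09).

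The single-strand binding complex, which coats unwound DNA, gave 1 rise among 3 genes, Rpa2. It had log2 signals of 7.56 and 6.63 in null-labelled livers at 24 h and 5.19 and 4.81 at 0 h, against 5.97 and 6.68 in wild type at 24 h and 4.20 and 5.45 at 0 h. The 24 h arrays lay above the 0 h arrays in both genotypes, and the 24 h groups overlapped. The log2 response of Rpa2 was 2.10 ± 0.52 (adjusted p = 0.0477) in null-labelled and 1.50 ± 0.52 (adjusted p = 0.119) in wild type livers. Rpa3, the small subunit, had log2 signals of 7.94 and 7.83 in null-labelled livers at 24 h and 7.13 and 7.34 at 0 h, against 6.33 and 7.05 in wild type at 24 h and 6.70 and 6.86 at 0 h. The null-labelled arrays lay above the wild type arrays at each time, and the wild type groups overlapped. Rpa1, the large subunit, ranged from 8.01 to 8.96, with log2 responses of 0.68 ± 0.23 in null-labelled and 0.02 ± 0.23 in wild type livers that did not pass.

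Of the 9 polymerase and primase genes 3 rose in the null-labelled response (Pola2, Pold1 and Pold3), none in wild type, and 6 in the mean response. Pola2, the regulatory subunit of polymerase alpha, had log2 signals of 6.17 and 5.90 in null-labelled livers at 24 h and 4.52 and 3.67 at 0 h, against 5.03 and 5.60 in wild type at 24 h and 4.24 and 5.10 at 0 h. The wild type groups overlapped, and both null-labelled 24 h arrays lay above all other arrays. In log2 units its response was 1.94 ± 0.41 (adjusted p = 0.0332) in null-labelled and 0.65 ± 0.41 (adjusted p = 0.34) in wild type livers. A dimmer passing Pola2 probe set gave 0.32 and 0.69, the opposite order, and neither passed in a fit of all passing probe sets. Pola1, the catalytic subunit, had log2 signals of 5.84 and 4.94 in null-labelled livers at 24 h and 4.55 and 3.92 at 0 h, against 4.88 and 4.93 in wild type at 24 h and 4.39 and 4.45 at 0 h. It rose in the mean response by 0.82 ± 0.24 (adjusted p = 0.0479).

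Polymerase delta extends the lagging strand. Pold1, its catalytic subunit, had log2 signals of 5.64 and 4.72 in null-labelled livers at 24 h and 3.91 and 3.62 at 0 h, against 4.88 and 5.38 in wild type at 24 h and 4.57 and 4.62 at 0 h. The 24 h groups overlapped, and at 0 h the null-labelled arrays lay below wild type (-0.83 ± 0.33, unadjusted p = 0.0455, adjusted p = 0.515 by limma). Its log2 response was 1.42 ± 0.33 (adjusted p = 0.042) in null-labelled and 0.54 ± 0.33 (adjusted p = 0.329) in wild type livers. The accessory subunit Pold3 had log2 signals of 6.44 and 6.47 in null-labelled livers at 24 h and 5.72 and 5.97 at 0 h, against 6.31 and 6.21 in wild type at 24 h and 5.97 and 6.07 at 0 h. Its levels differed little between pools, and its log2 response was 0.61 ± 0.14 (adjusted p = 0.0383) in null-labelled and 0.24 ± 0.14 (adjusted p = 0.299) in wild type livers. Dimmer Pold3 probe sets gave 1.07 and 0.74, and nearly equal responses of 1.22 and 1.25. All of these but the 0.74 passed in a fit of all passing probe sets. Pold2 had responses of 0.46 and 0.40 that did not pass.

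Prim1, the catalytic primase subunit, had log2 signals of 8.44 and 8.29 in null-labelled livers at 24 h and 7.68 and 7.21 at 0 h, against 7.80 and 8.39 in wild type at 24 h and 7.26 and 7.53 at 0 h. The 24 h arrays lay above the 0 h arrays in both genotypes, and its mean log2 response was 0.81 ± 0.18 (adjusted p = 0.0237). Pole, the catalytic subunit of polymerase epsilon, was above the filter limit of 3.60 in 3 arrays, all at 24 h. Its log2 signals were 5.58 and 3.63 in null-labelled livers at 24 h and 2.47 and 2.00 at 0 h, against 3.21 and 4.07 in wild type at 24 h and 2.79 and 2.58 at 0 h. Its mean log2 response was 1.66 ± 0.46 (adjusted p = 0.041), and 0.70 (adjusted p = 0.056) with 16 added to each linear value before the log. Pole2 and Prim2 did not pass in any comparison.

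The origin recognition complex gave 3 rises among 6 genes in the null-labelled response (Orc2, Orc4 and Orc6), 1 in wild type (Orc2) and 4 in the mean response. Orc6, its smallest subunit, had log2 signals of 7.02 and 6.70 in null-labelled livers at 24 h and 5.07 and 5.01 at 0 h, against 5.74 and 6.15 in wild type at 24 h and 5.14 and 5.36 at 0 h. No array of 1 group fell within the range of another. Its log2 response was 1.82 ± 0.20 (adjusted p = 0.0112) in null-labelled and 0.69 ± 0.20 (adjusted p = 0.0782) in wild type livers, and the mean response was 1.26 ± 0.14 (adjusted p = 0.00377). The difference of responses was 1.13 ± 0.28 (adjusted p = 0.531).

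With the brightest probe set standing for each gene, Orc2 is the 1 member that rose in each genotype. It had log2 signals of 5.83 and 6.19 in null-labelled livers at 24 h and 5.16 and 5.07 at 0 h, against 5.55 and 5.55 in wild type at 24 h and 4.82 and 4.82 at 0 h. The 4 groups did not overlap, and null-labelled livers were above wild type at each time. Its log2 response was 0.90 ± 0.15 (adjusted p = 0.0212) in null-labelled and 0.73 ± 0.15 (adjusted p = 0.0392) in wild type livers, a difference of 0.16 ± 0.21. The other Orc2 probe sets gave mean log2 responses of 0.33 and 0.38 that did not pass.

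Orc4 had log2 signals of 7.50 and 7.56 in null-labelled livers at 24 h and 6.89 and 6.96 at 0 h, against 7.15 and 7.21 in wild type at 24 h and 6.93 and 6.91 at 0 h. Its pools lay close together, and its log2 response was 0.60 ± 0.11 (adjusted p = 0.0257) in null-labelled and 0.26 ± 0.11 (adjusted p = 0.181) in wild type livers. A second Orc4 probe set, nearly as bright (mean 6.86 against 7.14), gave -0.08 and -0.19. The dimmer ones gave 0.77 and 0.24, and -0.09 and -0.41. Orc3 had log2 signals of 7.02 and 7.39 in null-labelled livers at 24 h and 6.65 and 6.91 at 0 h, against 7.37 and 7.21 in wild type at 24 h and 6.83 and 6.82 at 0 h. It rose in the mean response by 0.45 ± 0.12 (adjusted p = 0.0415), with like responses in the 2 genotypes (0.43 and 0.47). Orc5 had log2 signals of 7.27 and 7.25 in null-labelled livers at 24 h and 6.70 and 6.94 at 0 h, against 6.70 and 6.79 in wild type at 24 h and 6.85 and 6.84 at 0 h. Both null-labelled 24 h arrays stood above the other 6, and its log2 responses of 0.44 ± 0.13 in null-labelled and -0.10 ± 0.13 in wild type livers did not pass. Orc1, the subunit whose level is known to follow the cell cycle, ranged from 5.01 to 6.64 with overlapping groups.

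Of the 3 licensing factors 1 rose, Cdt1, in the null-labelled and the mean response. Cdt1, which brings the helicase to origins, had log2 signals of 8.65 and 7.09 in null-labelled livers at 24 h and 4.63 and 4.94 at 0 h, against 6.30 and 7.62 in wild type at 24 h and 5.35 and 5.44 at 0 h. The 24 h arrays lay above the 0 h arrays in both genotypes, and the 24 h groups overlapped. In log2 units its response was 3.08 ± 0.61 (adjusted p = 0.029) in null-labelled and 1.57 ± 0.61 (adjusted p = 0.152) in wild type livers. Geminin (Gmnn), the inhibitor of Cdt1, had log2 signals of 8.36 and 7.71 in null-labelled livers at 24 h and 6.74 and 6.89 at 0 h, against 6.17 and 7.37 in wild type at 24 h and 6.42 and 6.66 at 0 h. Only its null-labelled 24 h arrays stood apart from all others, and its log2 responses of 1.22 ± 0.42 and 0.24 ± 0.42 did not pass. Cdc6, which loads the helicase with Cdt1, was above the filter limit in 3 arrays, all at 24 h. Its log2 signals were 6.63 and 3.71 in null-labelled livers at 24 h and 1.68 and 0.00 at 0 h, against 1.69 and 4.77 in wild type at 24 h and 1.80 and 1.32 at 0 h, so that 1 pool of each 24 h group was far above the other. Its log2 responses of 4.33 ± 1.33 and 1.67 ± 1.33 did not pass.

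Among the 6 genes of origin firing, Gins1 rose and Mcm10 fell. Gins1, a subunit of the GINS complex, had log2 signals of 6.89 and 6.45 in null-labelled livers at 24 h and 4.90 and 5.01 at 0 h, against 5.26 and 6.01 in wild type at 24 h and 4.77 and 5.28 at 0 h. The wild type groups overlapped, and its log2 response was 1.71 ± 0.31 (adjusted p = 0.0249) in null-labelled and 0.61 ± 0.31 (adjusted p = 0.249) in wild type livers. Mcm10, a factor that helps switch on the helicase, had log2 signals of 7.73 and 6.66 in null-labelled livers at 24 h and 9.77 and 9.84 at 0 h, against 5.46 and 7.86 in wild type at 24 h and 9.43 and 9.62 at 0 h. Every 24 h array lay below every 0 h array. The mean log2 response was -2.74 ± 0.54 (adjusted p = 0.0163), and neither genotype's own response passed (-2.61 ± 0.77, adjusted p = 0.0709, in null-labelled and -2.86 ± 0.77, adjusted p = 0.0706, in wild type livers). Cdc45, the helicase cofactor, had log2 responses of 1.79 ± 0.53 (adjusted p = 0.0728) in null-labelled and 0.02 ± 0.53 in wild type livers. The kinase Cdc7, its activator Dbf4 and Gins2 had responses between -0.43 and 2.04 in null-labelled and between -0.54 and 0.83 in wild type livers, none past the test. A dimmer Gins2 probe set rose in the null-labelled and the mean response in a fit of all passing probe sets.

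Of the lagging strand enzymes, Lig1, the ligase that seals the joined fragments, had log2 signals of 6.58 and 5.85 in null-labelled livers at 24 h and 3.90 and 3.72 at 0 h, against 4.78 and 6.06 in wild type at 24 h and 4.26 and 4.99 at 0 h. The wild type groups overlapped, as did the 24 h groups. The log2 response of Lig1 was 2.40 ± 0.49 (adjusted p = 0.0308) in null-labelled and 0.80 ± 0.49 (adjusted p = 0.326) in wild type livers. Fen1, the flap endonuclease that trims the fragments, ranged from 8.46 to 8.93 with responses of -0.24 ± 0.19 in null-labelled and 0.06 ± 0.19 in wild type livers.

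Of the chromatin factors 2 of the 3 measured rose in the null-labelled response. Uhrf1, which reads newly copied, half-methylated DNA and brings in the methyltransferase Dnmt1, had log2 signals of 7.67 and 5.90 in null-labelled livers at 24 h and 0.68 and 2.12 at 0 h, against 4.29 and 5.56 in wild type at 24 h and 2.91 and 1.52 at 0 h. All 24 h arrays were above the filter limit of 3.60 and all 0 h arrays below it, so the gene was tested only through its 24 h arrays and the size of its change is imprecise. In log2 units its response was 5.39 ± 0.86 (adjusted p = 0.0192) in null-labelled and 2.71 ± 0.86 (adjusted p = 0.0994) in wild type livers. With 16 added to each linear value the null-labelled response was 2.77. Chaf1b, a subunit of the complex that places new histones behind the fork, had log2 signals of 5.82 and 5.85 in null-labelled livers at 24 h and 5.20 and 5.31 at 0 h, against 5.25 and 5.39 in wild type at 24 h and 5.17 and 5.46 at 0 h. Its null-labelled 24 h arrays stood above the other 6, and its log2 response was 0.58 ± 0.15 (adjusted p = 0.049) in null-labelled and 0.01 ± 0.15 in wild type livers. The 2 probe sets of Chaf1b had opposite signs in the null-labelled response, and neither passed in a fit of all passing probe sets. Dnmt1 ranged from 6.49 to 7.53, with responses of 0.30 ± 0.22 and 0.58 ± 0.22 that did not pass.

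Uhrf1, Pole and Cdc6 passed the filter only through 24 h arrays and had to differ between times. Among the other 35 genes 14 rose in the null-labelled response, 1 in wild type, and 17 rose and 1 fell in the mean response, with median log2 responses of 0.80, 0.43 and 0.67. Of all 38 genes 33 were above the limit in every array.

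**Figure D3:**
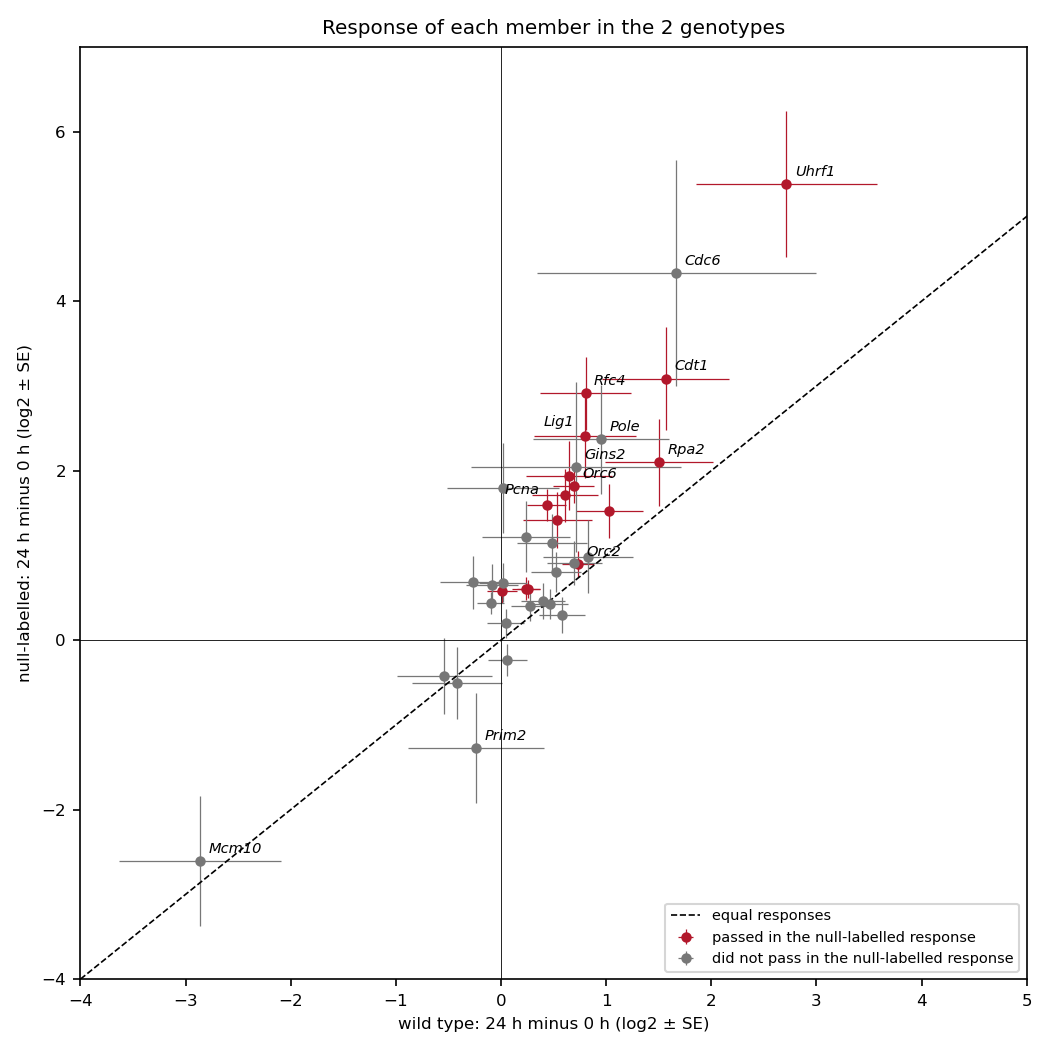
Log2 response (24 h minus 0 h, ± SE) of each of the 38 genes in null-labelled livers (vertical axis) against wild type livers (horizontal axis); red genes rose in the null-labelled response and the dashed line marks equal responses. Most points lie above the dashed line, with medians of 0.91 in null-labelled and 0.47 in wild type livers, and no gene's difference from the line passed the test.

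Set directly against wild type at 24 h, null-labelled livers had no member past the test in either direction, where 0.00692% of all genes were higher. The median difference of the 38 genes, null-labelled minus wild type, was 0.52 on the log2 scale against 0.01 over all genes. Of the 38, 31 were positive, where 50.9% of all genes were. The 38 genes shifted together between the 24 h pools, so they do not count as independent. At an unadjusted p under 0.05 there were 11, all positive (Pcna, Rfc4, Rfc5, Rpa3, Orc2, Orc4, Orc5, Orc6, Gmnn, Gins1 and Chaf1b). That is 28.9% of the 38, where 6.40% of all genes were positive at that threshold. Pcna had a log2 difference of 0.97 ± 0.19 (adjusted p = 0.218), Rpa3 of 1.19 ± 0.25 (adjusted p = 0.225), Orc6 of 0.92 ± 0.20 (adjusted p = 0.232) and Orc5 of 0.52 ± 0.13 (adjusted p = 0.272). With a trended and robust prior Pcna passed (adjusted p = 0.0349), as did 109 of the 14450 genes (0.754%) in either direction. Both null-labelled arrays lay above both wild type arrays for 17 of the 38 genes, as for 20.9% of all genes, and below for 1 (Dnmt1), as for 19.7%. The median difference was 0.25 without the first null-labelled 24 h array and 0.74 without the second.

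In unoperated livers none of the 38 genes passed between genotypes, where 0% of all genes passed in limma. The median difference was -0.11, against 0.01 over all genes, and 15 of the 38 were positive, where 51.3% of all genes were. Pold1, given above, was the 1 member at an unadjusted p under 0.05. Both null-labelled arrays lay above both wild type arrays for 4 genes (Gmnn, Mcm10, Orc2 and Rpa3), as for 24.2% of all genes, and below for 10, as for 23.9%. The 10 were Pcna, Rfc1, Rfc4, Rpa1, Pold1, Pole, Orc6, Cdt1, Cdc45 and Lig1. In the comparison over time, both 24 h arrays lay above both 0 h arrays for 32 of the 38 genes in null-labelled livers, as for 29.7% of all genes, and below for 3 (Fen1, Mcm10 and Prim2), as for 33.3%. In wild type livers they lay above for 20, as for 29.4%, and below for 2 (Mcm10 and Orc5), as for 32.7%. The 32 include Uhrf1, Pole and Cdc6, and the 20 include Uhrf1 and Pole. These genes passed the filter only through 24 h arrays, which favoured their separation over time. The responses and the genotype differences share arrays, so these counts are not independent of each other.

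The choice of probe set decides what several members show. The 38 genes have 78 probe sets, of which 70 passed the filter in a fit of all 30525 passing probe sets of the array. In that fit 23 rose in the null-labelled response, from 17 genes, and 3 in wild type (of Cdt1, Pold3 and Rfc3). Each of these 3 also rose in the null-labelled response, and no Orc2 probe set rose in wild type (adjusted p = 0.0569 by limma for the brightest). In the mean response 34 rose, from 23 genes, and 2 fell, both of Mcm10. The share of all passing probe sets that rose or fell in that fit was not counted. These counts therefore only show which members depend on the probe set. Of 22 genes with several passing probe sets, 5 had both signs in the mean response (Fen1, Mcm10, Orc3, Orc4 and Prim2). In the null-labelled response 7 had both signs, those 5 with Cdc45 and Chaf1b. Between genotypes at 24 h 57 of the 70 probe sets were positive and none passed. There 10 of the 22 genes had both signs, those 5 with Cdc45, Dnmt1, Pold3, Rfc1 and Rfc2.

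For Fen1 the brightest probe set carries the suffix x_at, with which Affymetrix marks probes that may also bind other transcripts, and it hardly moved. The dimmer probe set had log2 signals of 7.25 and 6.18 in null-labelled livers at 24 h and 4.35 and 4.41 at 0 h, against 5.37 and 6.20 in wild type at 24 h and 4.03 and 4.55 at 0 h. Its log2 response was 2.34 ± 0.44 (adjusted p = 0.0319) in null-labelled and 1.50 ± 0.44 (adjusted p = 0.0993) in wild type livers. A dimmer Prim2 probe set likewise had 6.12 and 5.88 in null-labelled livers at 24 h and 4.01 and 4.09 at 0 h, against 4.80 and 5.62 in wild type at 24 h and 4.52 and 4.69 at 0 h, where the brightest had a null-labelled response of -1.27. Its null-labelled response was 1.95 ± 0.28 (adjusted p = 0.0214).

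For Prim1 the dimmer probe set had a null-labelled log2 response of 3.52 ± 0.45 (adjusted p = 0.0177), against 0.91 for the brightest. For Cdt1 the second gave 3.76 in null-labelled and 2.88 in wild type livers, and both passed. For Mcm10 both probe sets that fell stem from 1 source sequence, and the other probe set had log2 signals of 4.84 and 5.15 in null-labelled livers at 24 h and 4.37 and 4.37 at 0 h, against 5.25 and 5.35 in wild type at 24 h and 3.49 and 4.34 at 0 h. Its mean response was 1.01 ± 0.20 (adjusted p = 0.0203), opposite to the other 2, so the direction of Mcm10 depends on the probe set. A dimmer Dnmt1 probe set, which also carries the suffix x_at, had a mean response of 1.46 ± 0.35 (adjusted p = 0.0312), against 0.44 for the brightest.

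**Figure D4:**
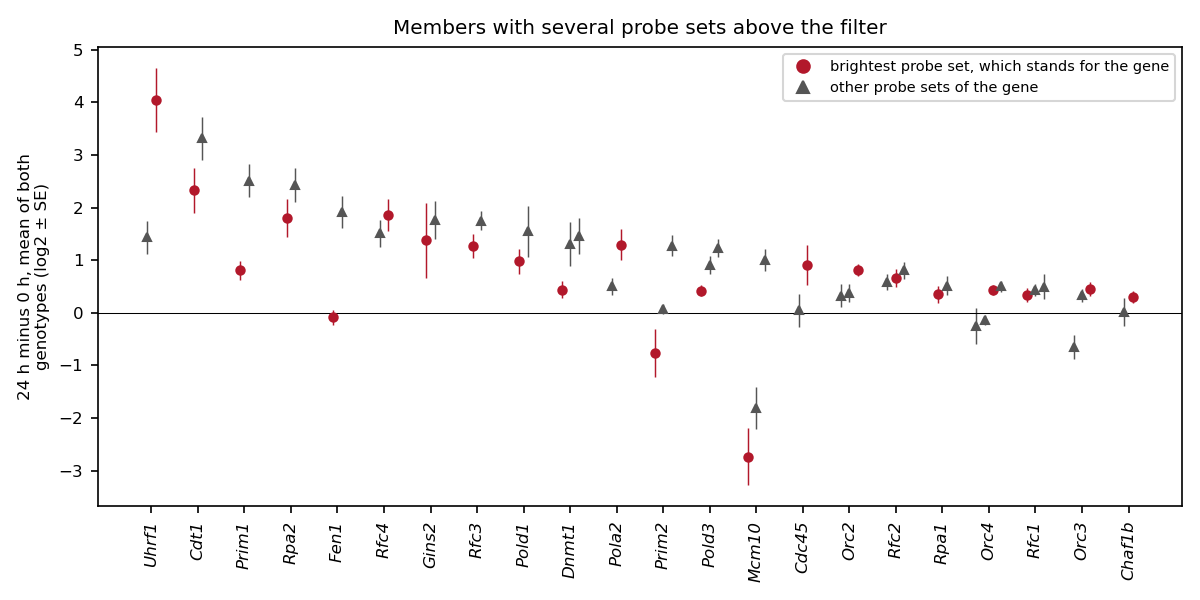
Mean response of both genotypes (24 h minus 0 h, log2 ± SE, vertical axis) of each probe set of the 22 genes with several passing probe sets (horizontal axis); red circles are the brightest probe set, which stands for the gene, and grey triangles the others. For Fen1 and Prim2 a grey triangle lies well above a red circle near or below 0, and for Mcm10 2 probe sets lie below 0 and 1 above.

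Related genes outside the list were counted in the same way, with no test between lists, where 7.45% of all genes rose in the null-labelled and 4.13% in the wild type response. All 6 genes of the replicative helicase rose in the null-labelled response and 2 in wild type, with median log2 responses of 3.50 and 2.23. Mcm5 had 4.45 ± 0.51 in null-labelled and 2.42 ± 0.51 in wild type livers, Mcm2 3.39 and 2.43, Mcm6 4.06 and 2.08, and Mcm4 3.60 and 2.37. Of 25 other fork and origin factors 9 rose in the null-labelled and 3 in the wild type response, with medians of 0.60 and 0.44. Tipin, a fork protection factor, had 1.87 ± 0.16 and 0.90 ± 0.16, Pole4, a small subunit of polymerase epsilon, 1.43 and 1.09, Donson 1.43 and 0.78, and Wdhd1 1.69 and 0.36. Of 9 genes that supply nucleotides 4 rose in null-labelled livers (Rrm2, Dck, Rrm1 and Dut), while in wild type none rose and Tk1 fell. Rrm2, the small subunit of ribonucleotide reductase, had 2.14 ± 0.26 and 0.61 ± 0.26. Of 10 histone chaperones and linked factors 1 (10%, near the share of all genes) rose in the null-labelled response (Hat1, 1.88 ± 0.19) and 2 in wild type (Hat1, 0.93 ± 0.19, and Nasp, 0.94 ± 0.21).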

How the data were processed

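Liver RNA of 4 groups was measured on 8 arrays, 2 per group. The authors' deposited values are log2 signals, as the values themselves show. No source used here names the algorithm behind them. Arrays were put on 1 scale by quantile normalisation. Probe sets had to exceed the 40th percentile of the array (a limit of 3.60) in 2 or more arrays, and the brightest with exactly 1 symbol stood for the gene. A model with 1 mean per group was fitted in limma 3.58.1 (R 4.3.3), with 4 residual and 2.01 prior degrees of freedom. Tests were two-sided, adjusted by Benjamini-Hochberg over 14450 genes, with a threshold of 0.05. The fit was tested on simulated data with independent noise for each gene, unlike the shared shifts between pools seen here.

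The comparisons were the response in each genotype, their mean and their difference, and the genotypes at each time. Alternatives covered the normalisation, filter, probe set choice, prior, array weights, threshold, a replicate block, and leaving out each array in turn; a crossed replicate block was added after the data were seen. The fixed genes and lists were chosen with earlier results of these data known. By the naming rule every member may be named, with array values for those that passed or had an unadjusted p under 0.05 between genotypes at 24 h or in the difference of responses, and at most 4 genes of each other list, those with the smallest p in the null-labelled response. Dimmer probe sets, Cdc6, Nasp, Tk1 and the named lymphocyte and neutrophil markers were singled out after their values were seen. The same number in 2 groups does not pair their pools: deviations of same-numbered arrays correlated at -0.20 between the 24 h groups and -0.11 between the 0 h groups. The number of arrays limits the precision.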

Additional observations from a re-analysis of the deposited data

How the results depend on the processing

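Among members named in a comparison, 847 values under alternatives kept their direction and side of the threshold, 237 kept the direction but no longer passed, 1 newly passed (Pcna between genotypes at 24 h, trended and robust prior), and none reversed. The values include the 6 members named in the difference of responses and the 11 between genotypes at 24 h, which never passed in the main fit. The 847 thus mix calls that held with members that had no call to lose. All 237 come from calls. The count of members that passed in the null-labelled response was 15, where 14.7% of all genes passed in either direction. It was 6 with no filter (5.64% of all genes) and 6 with a replicate block (6.25%). When only the groups compared were fitted it was 0, where 0% of all genes passed. At adjusted p under 0.01 and 0.10 it was 0 and 25. Leaving out single arrays it ran from 0 to 13. The wild type count was 1, where 9.21% of all genes passed in either direction. It was 0 with median centring (5.58% of all genes), no filter (2.98%), a replicate block (2.3%) or only the groups compared (0.0138%). A threshold of 0.01 also gave 0. It was 2 with 16 added on the linear scale (15%), the mean of all probe sets (7.25%) or a trended and robust prior (17.9%). It was 3 with a filter at the 60th percentile (21.8%) and 5 at 0.10. Leaving out single arrays it ran from 0 to 2. The count between genotypes at 24 h was 1 with a trended and robust prior. The mean response count of 20 was 5 at 0.01 and ran from 10 to 19 without single arrays. The median null-labelled response was 1.13 with median centring and 0.67 to 1.01 without single arrays. Without single arrays the median was 0.26 to 0.64 in wild type, 0.40 to 0.85 for the difference of responses and 0.25 to 0.74 between genotypes at 24 h. The numbers do not pair the pools, so the replicate block only moves counts. A crossed pairing gave 17, 1 and 21 for null-labelled, wild type and mean response, where 12.9%, 7.58% and 27.8% of all genes passed. The cause of these shifts was not tested. Fits without 1 array assume that its lone partner varies like the other groups.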

Other observations

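Some members differed widely between pools of 1 group. Gins2, a subunit of the GINS complex, had log2 signals of 2.77 and 5.64 in the null-labelled 0 h pools and 6.36 and 4.45 in the wild type 0 h pools through its brightest probe set. Prim2, the large primase subunit, had 3.50 and 5.56 in the null-labelled 24 h pools through its brightest probe set, while its other probe sets differed by far less there (5.43 and 5.51, and 6.12 and 5.88). The Orc1 probe set that did not pass the filter had 3.57 and 2.86 in null-labelled livers at 24 h and 0.97 and 0.35 at 0 h, against 1.62 and 2.17 in wild type at 24 h and 2.23 and 0.22 at 0 h. Its null-labelled 24 h arrays were the highest, all 8 values lay under the limit of 3.60, and it was not tested.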
